A study of Mus musculus with 425 samples.

Results

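The 6 genes for C-type lectin receptors, Mrc1, Cd209f, Cd209g, Clec4n, Clec10a and Mgl2, were followed by region, stage and cell in macrophages of the mouse brain. They were taken by name, 6 of the 15741 gene names in the count table. The table covers 425 single cells of CD-1 mice, described as microglia and perivascular macrophages, that were captured on 197 microfluidic chips after papain digestion and read as unique molecular identifiers (UMIs), which count tagged molecules at the 5′ end of transcripts. The labels give a region and an age and name no animal, sex, genotype or treatment, and the regions are parts of the brain except dorsal horn, which belongs to the spinal cord (8 cells), and the sites of 4 further cells. The groups used here were 356 postnatal cells of days 16 to 31 from cortex S1, Amygdala, DentGyr, hypothalamus, ZonaIncerta, SN-VTA, hippo CA1, striatum and dorsal horn, 43 embryonic cells labelled E11.5 to E18.5 from ventral midbrain, cortex S1 and dorsal horn, and 6 brain cells of days 67 to 90. The 16 cells labelled sscortex were left out by the rule that set the regions, and 4 cells of bone marrow and dorsal epidermis stand apart.

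C-type lectin receptors bind sugars on microbes and on the body's own glycoproteins, and many of them carry their cargo into the cell. Some signal through a partner that holds an activation motif, others mainly take up ligand. In the brain they are known from macrophages at vessels, meninges and choroid plexus, while microglia of the parenchyma carry few of them. Mrc1 encodes the mannose receptor (CD206), an endocytic receptor with several lectin domains. Cd209f and Cd209g belong to the mouse family related to human DC-SIGN. Clec4n encodes Dectin-2, which recognises fungal mannans and signals through the Fc receptor gamma chain. Clec10a and Mgl2 encode MGL1 and MGL2, a pair of mouse receptors for galactose and N-acetylgalactosamine.

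Cd209f and Cd209g are neighbours with near-identical stretches, which bears on how their molecules can be told apart, so the stretches are shown first. In RefSeq's annotation of GRCm38.p6, the mm10 assembly of the deposited data, Cd209f spans chr8:4102784-4105838 and Cd209g chr8:4134246-4137707. RefSeq's table holds the window from 250 bases before to 50 after a start site for 4 of the 6 genes (Mrc1, Cd209f, Cd209g and Mgl2). For Cd209f and Cd209g this site, chr8:4105764 and chr8:4134736, lies inside the gene span given above, not at its beginning. The windows of Cd209f and Cd209g aligned over 260 positions with 242 identical (93.1%), including an uninterrupted shared run of 180 bases, while no other pair of the 4 windows shared more than 10 bases in a row. Below are the parts of the 2 windows that lie before every annotated coding transcript start inside the window, with the shared run in capitals up to where each stretch ends. They cover chr8:4105836-4106014 on the minus strand for Cd209f and chr8:4134486-4134651 on the plus strand for Cd209g. The Cd209g stretch lies within the gene's RefSeq span and within an annotated noncoding retained-intron transcript.
Cd209f: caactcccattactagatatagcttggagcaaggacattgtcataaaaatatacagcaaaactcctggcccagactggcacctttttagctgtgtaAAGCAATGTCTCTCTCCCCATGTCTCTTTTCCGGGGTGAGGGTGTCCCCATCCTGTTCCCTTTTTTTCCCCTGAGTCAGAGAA
Cd209g: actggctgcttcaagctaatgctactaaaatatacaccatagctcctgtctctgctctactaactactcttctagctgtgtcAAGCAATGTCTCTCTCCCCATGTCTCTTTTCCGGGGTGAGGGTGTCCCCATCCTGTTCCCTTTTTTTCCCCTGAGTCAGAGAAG
The shared run begins 154 bases before the start site of the Cd209f window and 168 bases before that of the Cd209g window. It continues past the end of both stretches. The run holds the letters TGAGTCA 83 bases before the Cd209f site and 97 before the Cd209g site, and TATAAA 29 and 43 bases before them. Searched on both strands, with no overlap between the motifs here, TGAGTCA stood in 5.20% of the 32851 promoter windows of the table and TATAAA in 13.6%. Neither stood in the windows of Mrc1 and Mgl2.

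The transcripts of the pair are alike too. The coding transcripts Cd209f-203 and Cd209g-201 of GENCODE share a run of 416 bases, at positions 195 to 610 and 194 to 609, and 49% of the 50-base windows in the first 300 bases of Cd209f-203 recur in Cd209g-201 (58.6% for Cd209f-202). A 5′ tag from those bases fits both genes. How the counting treated such tags is not given in the sources used here, so the division of molecules between Cd209f and Cd209g is uncertain, and their sum is given beside each. Clec10a (chr11:70166623-70170836) and Mgl2 (chr11:70130125-70137542) share at most 183 bases in a row, and 0% of the 50-base windows in the first 300 bases of Clec10a-201 recur in Mgl2-201. The short transcripts Clec10a-207, Clec10a-208 and Clec10a-204 are exceptions, with 43.8%, 9.56% and 1.99%. Mrc1 lies at chr2:14229414-14332023 and Clec4n at chr6:123229843-123247024, and neither shares 50 bases in a row with another of the 6 genes.

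No label gives a cell's type, so the 405 cells of these groups were divided by Ward clustering on 20 microglia and 22 perivascular macrophage (PVM) marker genes with no C-type lectin among them. Of the postnatal cells, 215 were PVM-like and 141 microglia-like, with median totals of 2049 and 1733 UMIs. The 10 leading genes of the PVM-like class were Pf4, Cbr2, F13a1, Cd209f, Ccl24, Mrc1, Lyve1, Lyz2, Folr2 and Cd36, 8 of them from the panel. Since the panel made the classes, its lead does not test them. With classes built from 300 variable genes instead, 36 of all 221 PVM-like and 15 of all 184 microglia-like cells changed class. Totals are sums over the genes listed in the table, and levels are given per 1000000 of them (CPM). Since UMIs count molecules, levels of different genes are compared without scaling to length. Shares of cells carry Clopper-Pearson and counts Poisson intervals, both exact and at 95%, which cover counting error only.

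The 6 genes were found almost entirely in PVM-like cells. Mrc1 had a UMI in 213 of 215 postnatal PVM-like cells (99.1%, interval 96.7 to 99.9), Clec4n in 154 (71.6%, 65.1 to 77.5), Mgl2 in 133 (61.9%, 55 to 68.4), Clec10a in 126 (58.6%, 51.7 to 65.3), Cd209f in 124 (57.7%, 50.8 to 64.4) and Cd209g in 96 (44.7%, 37.9 to 51.6). In the 141 postnatal microglia-like cells, Cd209f, Cd209g, Clec4n and Clec10a had 0 UMIs, which, at 3 counts, allows up to 2.13% of cells with a UMI and a level of up to 10.3 CPM. This limit concerns cells with a UMI, not cells expressing the gene. Mrc1 had 14 UMIs in 5 of those cells and Mgl2 6 UMIs in 1. Of these 5 cells, 3 lay near the border between the classes, with 47.1% to 51.2% of their panel UMIs on PVM genes, and they held 12 of the 14 Mrc1 molecules and all 6 of Mgl2. As a description with no test, since the genes were chosen with the class difference known, the summed level was 92-fold higher in PVM-like cells for Mrc1 (interval 54.7 to 169) and 47-fold for Mgl2 (21.4 to 129). Against 3 counts over the microglia-like group it was at least 156-fold higher for Cd209f, 80.1-fold for Clec4n, 54.5-fold for Clec10a and 49.3-fold for Cd209g. At 1000 UMIs drawn from each cell, which 197 PVM-like cells reached, the shares became 89.8% for Mrc1, 51.8% for Clec4n, 48.2% for Cd209f, 45.7% for Mgl2, 39.1% for Clec10a and 31.0% for Cd209g.

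Mrc1 was the most abundant of the 6 messages in postnatal PVM-like cells. To compare samples, UMIs of the cells of 1 region and 1 day were summed into pools of at least 3 cells, giving 26 pools from 6 regions. Different days are different animals, while pools of 1 day may share animals, so p-values below measure only the spread between pools. Mrc1 averaged 4744 CPM ± 1779 (SD, n = 26 pools), Cd209f 1895 ± 1697, Mgl2 1258 ± 1091, Clec4n 944 ± 558, Clec10a 674 ± 503 and Cd209g 538 ± 553. Mrc1 exceeded Cd209f in 24 of 26 pools. The neighbours below it in this order overlapped within 1 SD, and the higher of 2 neighbours led in 18, 16, 18 and 16 of 26 pools. In single postnatal cells the highest counts were 44 UMIs for Mrc1, 24 for Cd209f, 20 for Cd209g, 17 for Mgl2, 14 for Clec4n and 9 for Clec10a.

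**Figure D1:**
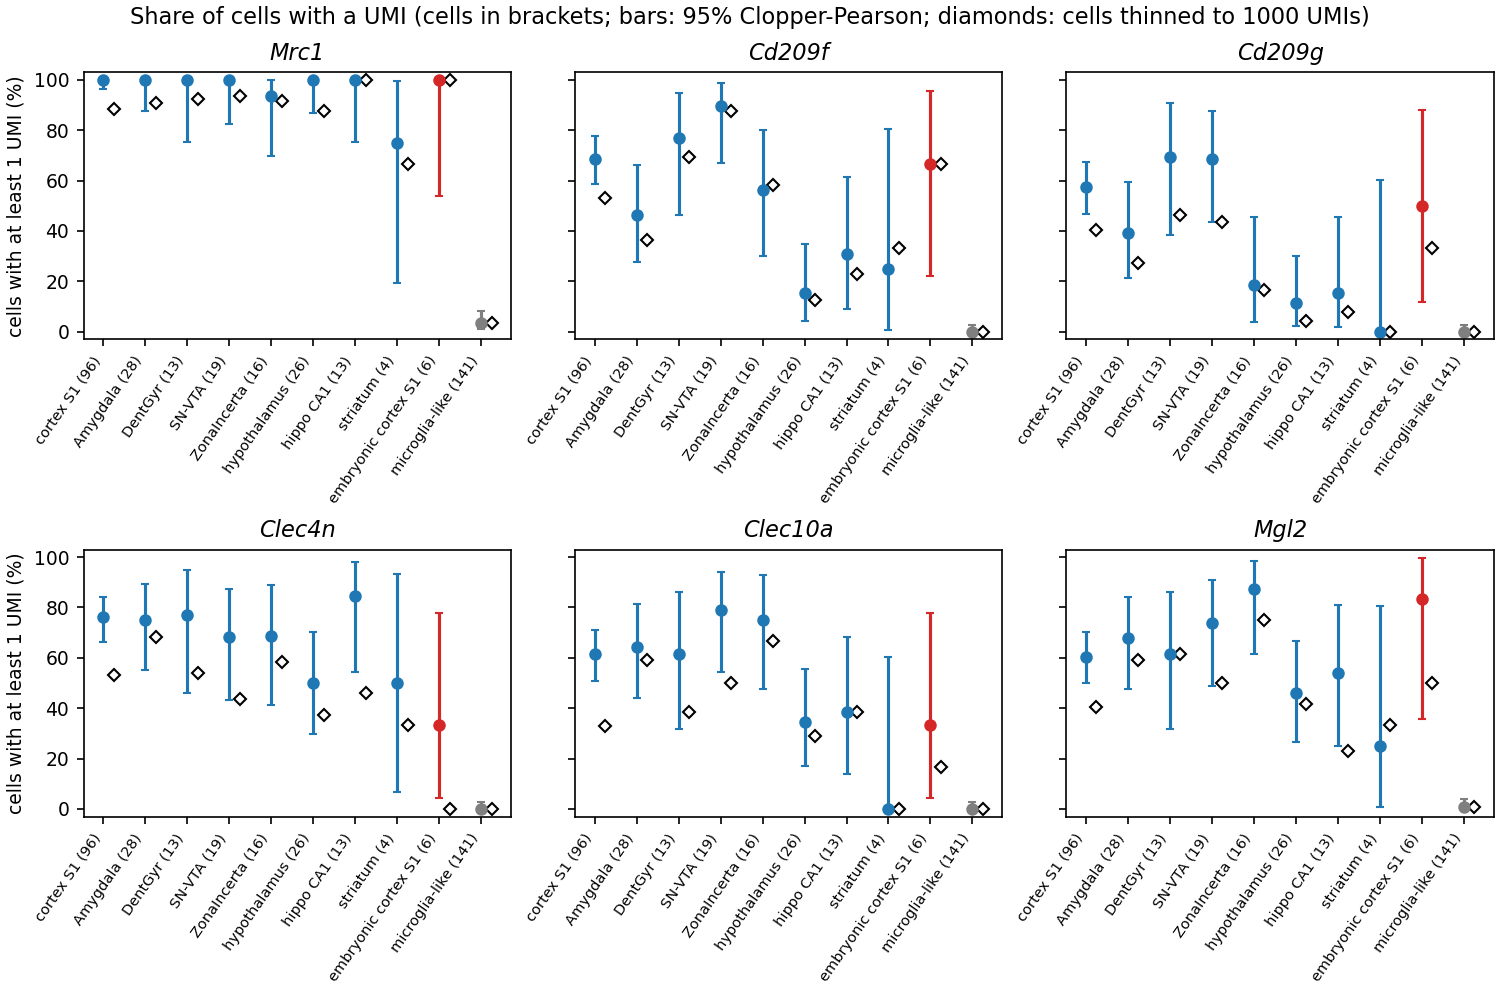
Share of cells with at least 1 UMI (%) of each gene in postnatal PVM-like cells by region (blue), embryonic PVM-like cells of cortex S1 (red) and all postnatal microglia-like cells (grey), with the number of cells in brackets, 95% Clopper-Pearson bars and diamonds for cells thinned to 1000 UMIs. Mrc1 stays at 75% or above in every PVM-like group, while Cd209f runs from 15.4% in hypothalamus to 89.5% in SN-VTA.

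Among the receptors, the Cd209 pair varied most between regions. Cd209f had a UMI in 17 of 19 PVM-like cells of SN-VTA (89.5%, interval 66.9 to 98.7), 10 of 13 of DentGyr (76.9%, 46.2 to 95), 66 of 96 of cortex S1 (68.8%, 58.5 to 77.8), 9 of 16 of ZonaIncerta (56.2%), 13 of 28 of Amygdala (46.4%), 4 of 13 of hippo CA1 (30.8%), 1 of 4 of striatum and 4 of 26 of hypothalamus (15.4%, 4.36 to 34.9). Cd209g followed a like order, from 9 of 13 cells in DentGyr (69.2%) and 13 of 19 in SN-VTA (68.4%) to 3 of 26 in hypothalamus and 0 of 4 in striatum. In ZonaIncerta, Cd209f was found in 9 and Cd209g in 3 of 16 cells. Median totals were 1780 UMIs in the hypothalamus cells, 2735 in cortex S1 and 1492 in SN-VTA, and at 1000 UMIs per cell Cd209f remained in 12.5% of hypothalamus cells, 53.2% of cortex S1 cells and 87.5% of SN-VTA cells.

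In pools, the level of Cd209g in hypothalamus was 0 CPM on days 23 and 29, 87.2 on day 27, 95 on day 21 and 189 on day 25. In the 7 pools of cortex S1 it ran from 213 CPM to 1392 with a median of 375. All 5 hypothalamus pools lay below all 7 cortex S1 pools as counted. Each of the 5 held only 0 or 1 molecule, in totals of 5150 to 11469 UMIs. At the limit of 3 counts used above, both pools at 0 would reach into the cortex S1 range. How many other genes separated these pools was not counted. The 3 DentGyr pools held 655, 1339 and 2341 CPM, and the 3 SN-VTA pools 498, 894 and 1051, so neither region overlapped the hypothalamus as counted. The Amygdala pools ran from 0 to 1189 CPM with a median of 370, and the 2 ZonaIncerta pools held 130 and 302. Of 262 genes tested over the 6 regions, in a model that also held the age, edgeR's quasi-likelihood F-test with Benjamini-Hochberg adjustment called 56 (21.4%), and 1 of the 6 receptors, Cd209g (adjusted p = 0.0143). Within the same fit, Cd209g was lower in hypothalamus than in cortex S1 by a log2 difference of -3.0 ± 0.81 (SE, adjusted p = 0.0266). That comparison called 15 of 262 genes (5.73%), 13 of them as lower (4.96%), and Cd209g was the only one of the 6. It rests on 3 molecules in hypothalamus against 170 in cortex S1, a ratio of the summed levels of 0.103 (counting interval 0.0210 to 0.306).

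Cd209f showed a difference of like direction that missed the threshold. Its hypothalamus pools held 0 CPM on days 23 and 29, 284 on day 21, 610 on day 27 and 1697 on day 25, against 533 to 2123 in cortex S1 with a median of 1864. The hypothalamus pools of days 25 and 27 therefore lay inside the cortex range. The DentGyr pools held 3404, 4016 and 4682 CPM and stood above every cortex S1 pool, while SN-VTA spread from 829.3 to 6934. How many other genes separated the DentGyr pools from those of cortex S1 was not counted. The F-test over regions gave an adjusted p of 0.0889 (0.0356 without the Amygdala pool of day 29), and the log2 difference of hypothalamus from cortex S1 was -1.94 ± 0.68 (adjusted p = 0.102). With the molecules of Cd209f and Cd209g summed into 1 row, the pair averaged 592 CPM ± 779 (n = 5) in hypothalamus, 1996 ± 972 (n = 7) in cortex S1 and 5479 ± 1486 (n = 3) in DentGyr. The summed pair did not pass (adjusted p = 0.0539 over regions, and 0.0662 for a log2 difference of -2.16 ± 0.69 between hypothalamus and cortex S1). Cd209f alone passed over regions under 4 of 13 alternatives: with DESeq2 (adjusted p = 0.0448), with no filter on low counts (0.00214), without age in the model (0.0297) and with the day as a block (0.0195). With no filter its log2 difference of hypothalamus from cortex S1 was -2.64 ± 0.53 (adjusted p = 0.000559), and it did not pass under the other 12. Within single days, the summed pair held 379 CPM in hypothalamus and 1198 in cortex S1 on day 21, and 698 and 3515 on day 27.

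The call for Cd209g over regions held when any 1 of the 26 pools was left out (adjusted p from 0.00828 to 0.0490). Its difference between hypothalamus and cortex S1 kept its direction in all of them but rose above an adjusted p of 0.05 without the hypothalamus pool of day 23 (adjusted p = 0.0867), 25 (0.0525), 27 (0.0552) or 29 (0.106), the cortex S1 pool of day 22 (0.0501) or 27 (0.0641), or the SN-VTA pool of day 25 (0.0501). With the day as a block the region call held (adjusted p = 0.0241 for Cd209g and 0.0195 for Cd209f) and the difference between hypothalamus and cortex S1 did not pass (0.122). That difference also did not pass with pools of at least 5 cells (adjusted p = 0.166) or per chip (0.132). The region call was lost with pools of at least 5 cells (adjusted p = 0.121), with pools per chip (0.316) and with classes built from 300 variable genes (0.0758). RNA of other brain cells also differed between the regions: the 8 oligodendrocyte markers summed to 36261 CPM on average in cortex S1 pools (1050 to 69229), 72101 in SN-VTA (5463 to 131531), 8413 in hypothalamus (2535 to 23234) and 191 in DentGyr (131 to 275). With the listed marker genes of 6 other cell types left out of the totals and the test, Cd209g stayed called over regions, 1 of 6 receptors among 48 of 254 genes. Genes of those cell types outside the lists stayed in, so most of their RNA may remain.

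**Figure D2:**
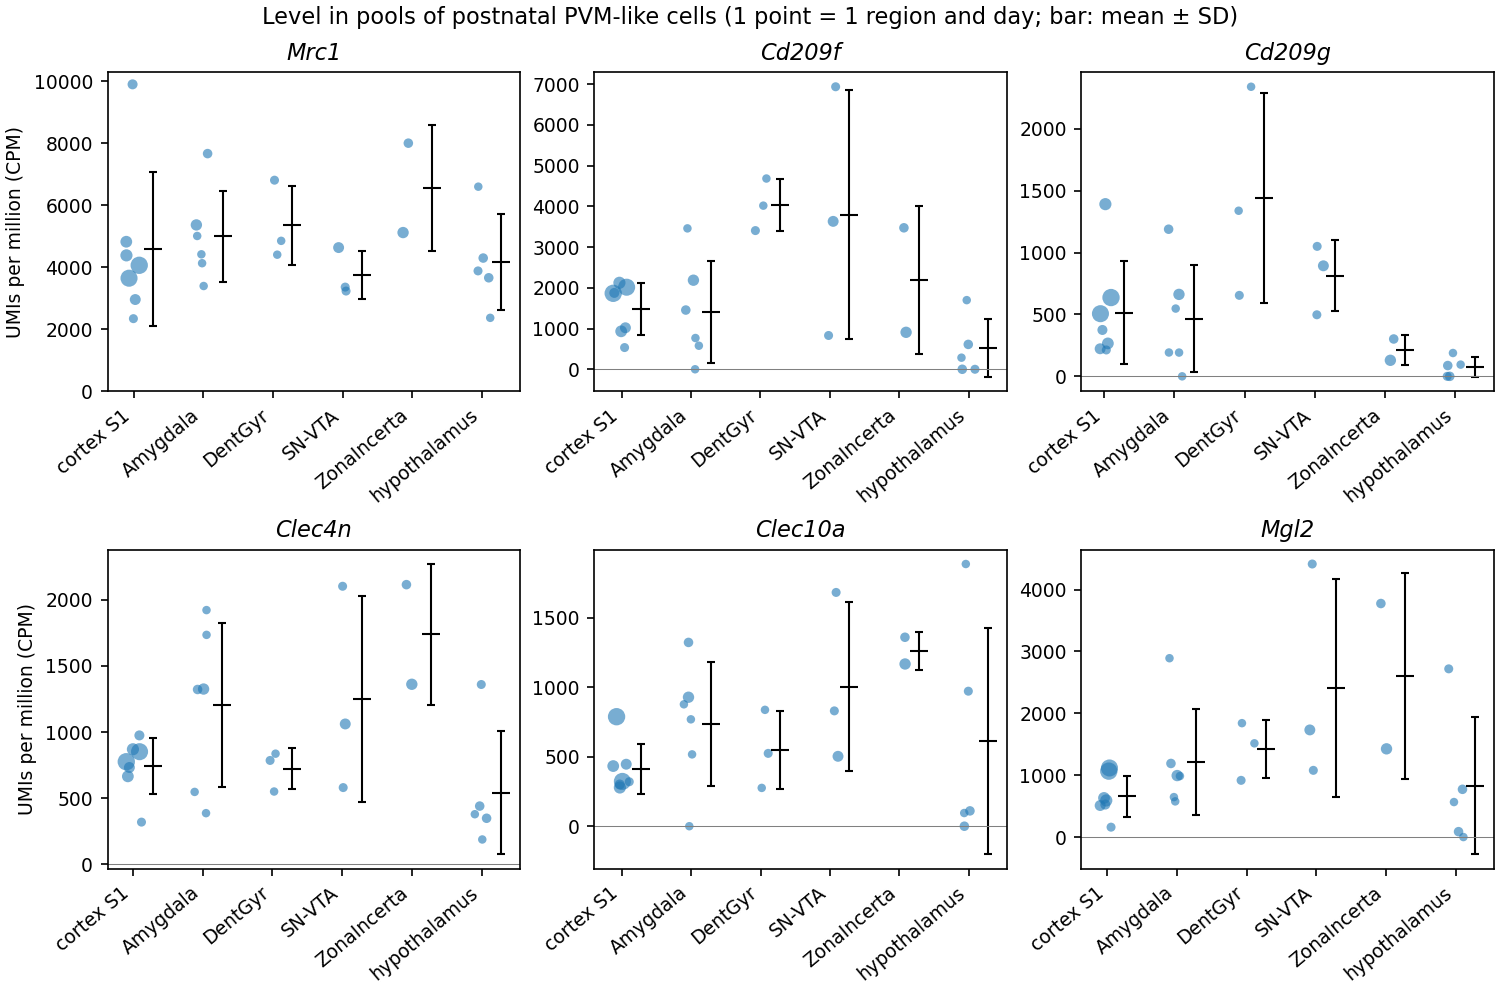
Level (CPM) of each gene in pools of postnatal PVM-like cells, 1 point per region and day with its area growing with the number of cells, and the mean ± SD beside the points. For Cd209g, the 5 hypothalamus pools (0 to 189 CPM, each with 0 or 1 molecule) lie below the 7 cortex S1 pools (213 to 1392 CPM).

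Cd209f held most of the molecules of the Cd209 pair in each of the 7 regions with at least 13 PVM-like cells. It made up 76% of them over all postnatal PVM-like cells (interval 73.5 to 78.5), from 72.7% in Amygdala (62.9 to 81.2) and 74.7% in cortex S1 (71.2 to 77.9) to 81.1% in ZonaIncerta (68.0 to 90.6) and 86.4% in hypothalamus (65.1 to 97.1), intervals that overlap. The difference between regions was not tested, and small pools varied, with 11 molecules of Cd209f to 9 of Cd209g in Amygdala on day 25 and 18 to 1 on day 27. Across the 26 pools, Pearson's r of log2(CPM + 50) between them was 0.86, the highest of the 15 pairs of receptors. These points share libraries, and the pair shares sequence.

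**Figure D3:**
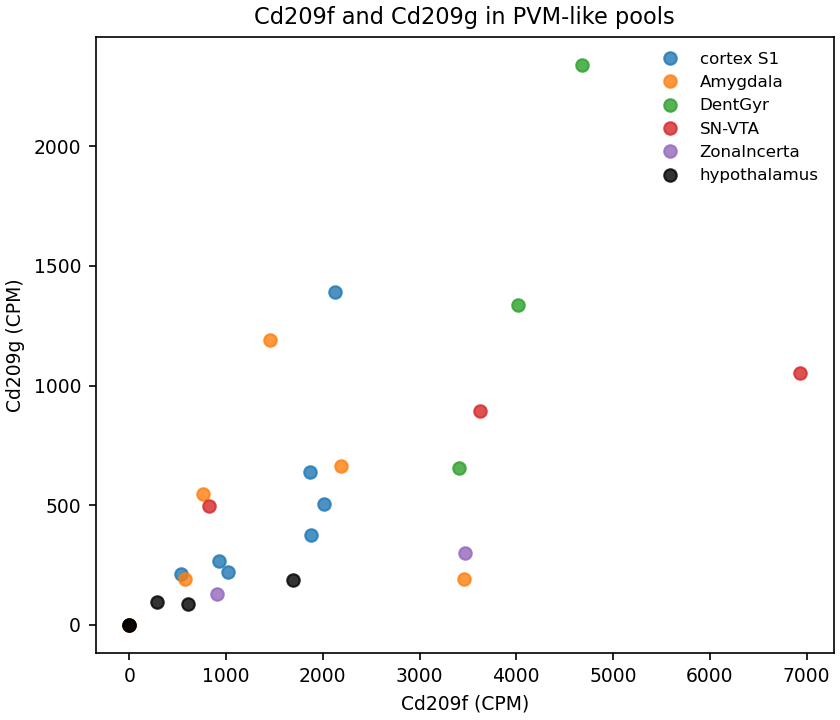
Level of Cd209g against Cd209f (both CPM) in the 26 pools of postnatal PVM-like cells, 1 point per region and day. The highest Cd209g level is that of a DentGyr pool (2341 CPM), and the 5 hypothalamus pools lie at or below 189 CPM of Cd209g.

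Clec4n, the Dectin-2 gene, lay below the cortex S1 median in 4 of 5 hypothalamus pools and above every cortex S1 pool in both of ZonaIncerta. Its 5 hypothalamus pools held 189, 349, 379, 441 and 1359 CPM, against 320 to 975 in cortex S1 (median 776), and the ZonaIncerta pools held 1361 and 2114. How many other genes separated the ZonaIncerta pools from those of cortex S1 was not counted. Of the hypothalamus pools, 3 lay inside the range of cortex S1, 1 below it and that of day 23 above it. The F-test gave an adjusted p of 0.0606, so Clec4n did not pass, and the log2 difference of hypothalamus from cortex S1 was -0.85 ± 0.39 (adjusted p = 0.208). It passed over regions in 3 of the 26 runs without 1 pool: without the Amygdala pool of day 29 (adjusted p = 0.0336), the DentGyr pool of day 23 (0.0422) or the hypothalamus pool of day 23 (0.0298). Clec4n was present in 50% of hypothalamus PVM-like cells (interval 29.9 to 70.1) and 84.6% of those of hippo CA1 (54.6 to 98.1). These shares are at unlike depth, with median totals of 1780 and 3251 UMIs. The summed levels were 400 CPM in hypothalamus and 555 in hippo CA1, both below the 795 of cortex S1.

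Mrc1 was the most even of the 6. It also had the most molecules in postnatal PVM-like cells, 2412 against 277 to 879 for the others. The part of abundance in its evenness was not tested. Its pools ran from 2345 to 9897 CPM in cortex S1 (median 4064), 2371 to 6599 in hypothalamus, 3397 to 7665 in Amygdala, 4406 to 6808 in DentGyr, 3234 to 4636 in SN-VTA, and held 5120 and 8001 in ZonaIncerta. All regions overlapped cortex S1 and the test over regions did not pass (adjusted p = 0.317). The log2 differences from cortex S1 lay between -0.44 ± 0.25 in hypothalamus and 0.20 ± 0.23 in Amygdala.

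The 2 galactose-type receptors had their highest means in ZonaIncerta and SN-VTA, without passing the test over regions. Mgl2 averaged 657 CPM ± 334 (n = 7) in cortex S1, 1214 ± 853 (n = 6) in Amygdala, 1424 ± 469 (n = 3) in DentGyr, 2407 ± 1767 (n = 3) in SN-VTA, 2600 ± 1661 (n = 2) in ZonaIncerta and 828.5 ± 1105 (n = 5) in hypothalamus. Both ZonaIncerta pools, 1426 and 3774 CPM, stood above every cortex S1 pool (160 to 1116), and SN-VTA overlapped with its lowest pool at 1078. Clec10a held 1166 and 1359 CPM in the ZonaIncerta pools against 278 to 787 in cortex S1, while its hypothalamus pools ran from 0 to 1885. How many other genes separated the 2 ZonaIncerta pools from those of cortex S1 was not counted. The test over regions gave an adjusted p of 0.372 for Mgl2 and 0.548 for Clec10a. The largest log2 differences from cortex S1 were 1.18 ± 0.84 for Clec10a in ZonaIncerta and 1.11 ± 0.60 for Mgl2 in SN-VTA (adjusted p = 0.575 and 0.539). The other 4 comparisons with cortex S1 called 40 genes in Amygdala (15.3%), 11 in DentGyr (4.2%), 4 in SN-VTA (1.53%) and 0 in ZonaIncerta (0%) (edgeR, 42 genes with an unadjusted p under 0.05), and none of the 6 receptors was called in them. Over the 262 genes the median log2 difference from cortex S1 lay between -0.21 and -0.10 in these comparisons, and over the 6 receptors it was -0.65 in hypothalamus and 0.29 to 0.54 in the other regions.

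Without regard to class, levels by region hold both the receptors and the mix of cells, and fewer PVM-like cells cannot be told apart there from less message per cell. PVM-like cells made up 81.4% of postnatal cells in cortex S1 (interval 73.1 to 87.9), 70.3% in hypothalamus, 67.9% in SN-VTA, 65% in hippo CA1, 59.6% in Amygdala, 44.4% in ZonaIncerta, 33.3% in striatum and 22.8% in DentGyr (12.7 to 35.8). Mrc1 was found in 83.1% of all cells of cortex S1 and 24.6% of those of DentGyr, and Cd209f in 60.7% of SN-VTA, 55.9% of cortex S1, 17.5% of DentGyr and 10.8% of hypothalamus, an order that differs from that of the PVM-like shares. Over 38 pools of all cells in 8 regions, the F-test called 176 of 561 genes (31.4%) and 4 of the 6 receptors: Clec4n (adjusted p = 0.0124), Cd209g (0.0127), Mgl2 (0.0244) and Cd209f (0.0319). Clec10a (0.0527) and Mrc1 (0.219) did not pass. Cd209g in the 6 hypothalamus pools of all cells ran from 0 to 101.3 CPM against 196 to 1250 in the 8 of cortex S1, a log2 difference of -3.53 ± 0.93 (adjusted p = 0.0142). Cd209f, Cd209g, Clec10a and Mgl2 had 0 UMIs in both striatum pools. Without the striatum pool of day 22, 320 of 1336 genes and 2 receptors (Clec4n and Cd209g) were called, and without that of day 25, 305 of 1346 genes and 3 receptors (these and Mgl2).

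Between days 21 and 31, the span of the pools, no change with age was called. Of 262 genes, edgeR's test of the slope per day, with region as a covariate, called 0 (0%), with 16 at an unadjusted p under 0.05 and 0 called by DESeq2. The steepest slopes were those of Mgl2, -0.19 ± 0.07 log2 units per day (unadjusted p = 0.0188, adjusted p = 0.758), and Clec4n, -0.11 ± 0.05 (0.0413, adjusted p = 0.758). In cortex S1, Mgl2 held 632 CPM on day 21, 1116 on day 22, 1065 on day 24, 509 on day 26, 592 on day 27, 525 on day 28 and 160 on day 31, so the 2 highest pools were among the 3 youngest. The other 4 receptors had slopes between -0.08 ± 0.09 (Cd209f) and -0.01 ± 0.09 (Clec10a).

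**Figure D4:**
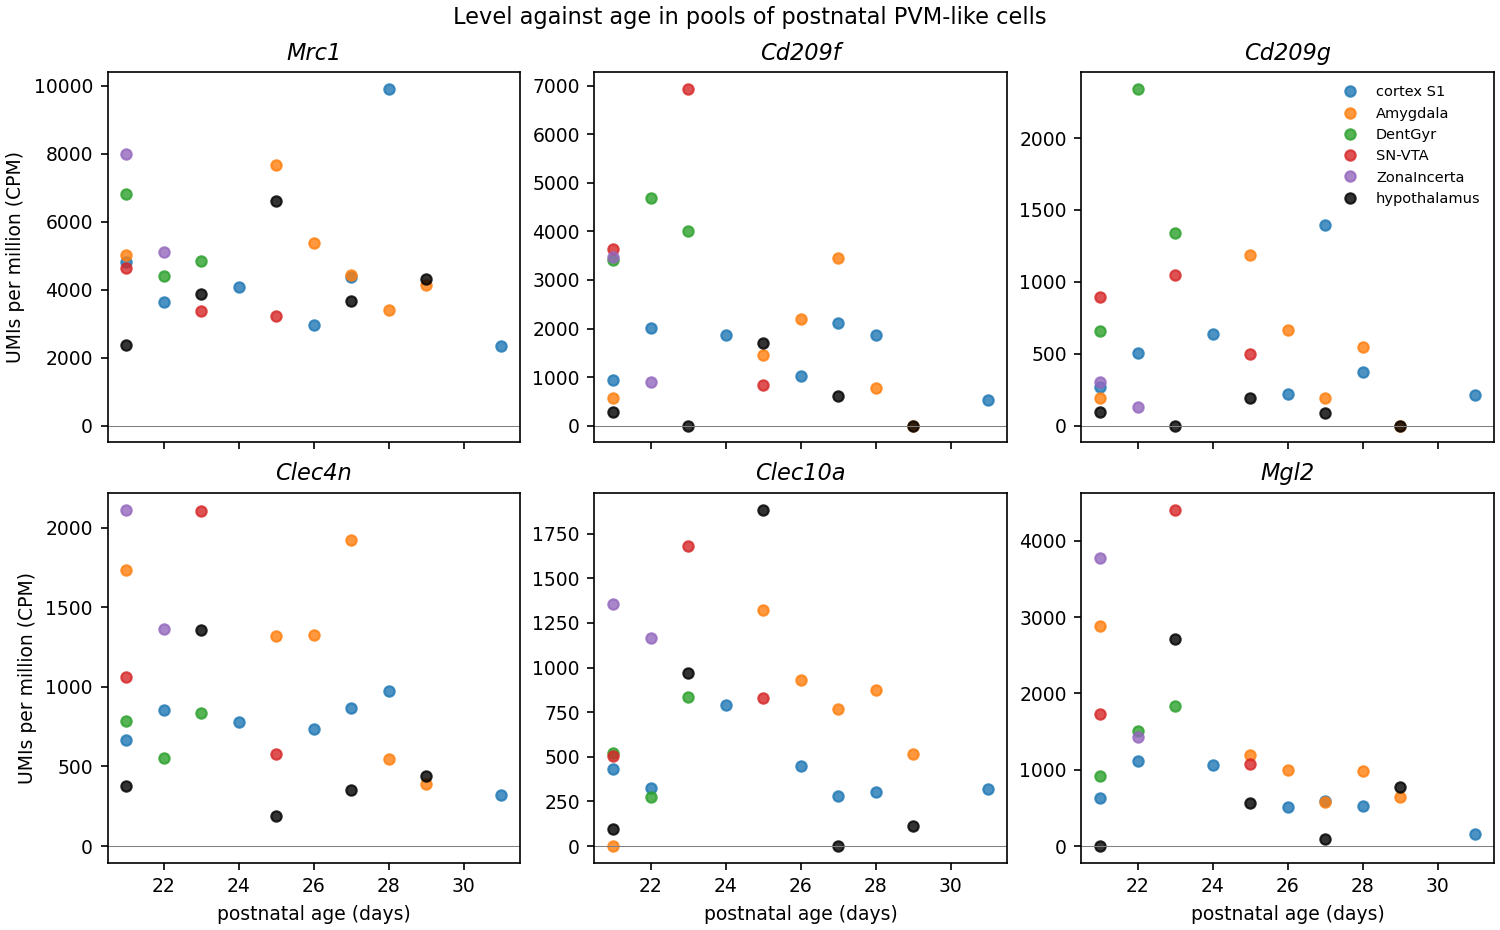
Level (CPM) of each gene against postnatal age in days in the pools of PVM-like cells, coloured by region. Mgl2 in cortex S1 (blue) lies at 1116 CPM on day 22 and 160 CPM on day 31, and no gene's slope passed the adjusted threshold.

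Embryonic PVM-like cells carried the same receptors, with Cd209f and Mrc1 at the highest levels. The 6 such cells all came from cortex S1 and 1 chip, so they count as 1 sample and no test was made. Mrc1 had 5, 5, 10, 17, 8 and 8 UMIs in them, and Cd209f 25, 27, 0, 0, 11 and 1. Cd209f was thus either abundant or nearly missing. In total Cd209f stood at 2875 CPM (Poisson interval 2214 to 3671), above the highest postnatal pool of cortex S1 (2123), and Mrc1 at 2381 (1783 to 3114), near the lowest (2345). Clec4n with 3 UMIs (135 CPM, 27.8 to 394) and Clec10a with 4 (180 CPM, 49 to 460) lay below the lowest postnatal pools of 320 and 278 CPM, though the upper bounds reach into that range. Mgl2 at 629 CPM and Cd209g at 314 lay inside it. Cd209f made up 90.1% of the molecules of its pair (80.7 to 95.9), against 74.7% in postnatal cortex S1. Cell division genes summed to 2426 CPM in these cells and 236 in postnatal cortex S1 PVM-like cells, and their part in the values was not tested.

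Among the 37 embryonic microglia-like cells, Mrc1 was found in 8 (21.6%, interval 9.83 to 38.2), all from ventral midbrain, with 36 UMIs in total. One of those cells held 25 of them along with 2 of Clec10a, and 32.8% of its panel UMIs were on PVM genes. A different cell held the only 4 UMIs of Clec4n. Cd209f, Cd209g and Mgl2 had 0 UMIs, which at 3 counts allows up to 8.11% of cells with a UMI. The ventral midbrain cells had a median total of 4135 UMIs, and with 1000 UMIs drawn from each, Mrc1 remained in 16.0% of the 25 rather than 32%, against 3.31% of postnatal microglia-like cells. The 6 brain cells of days 67 to 90 were all microglia-like and held 1 UMI of Mrc1 and none of the other 5.

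Most PVM-like cells held several of the receptors at once. Of 215 postnatal cells, 8 had 1 of the 6, 34 had 2, 37 had 3, 50 had 4, 57 had 5 and 29 had all 6 (13.5%, interval 9.22 to 18.8), and none lacked all of them. At least 3 were found in 173 cells (80.5%) and the median was 4. If the 6 were spread independently, the product of the single shares would give 14.2 cells with all 6 and 17.8 with 2, so cells with many and cells with few were both more common than that product over all regions. The product takes Cd209f and Cd209g as independent too, although they share sequence, and the part of this pair in the difference was not tested. The regions differ in their shares, and within a region all 6 were found in 13 cells of cortex S1 against a product of 10.7, 5 of SN-VTA against 4.63, 4 of DentGyr against 2.02 and 6 of Amygdala against 1.67. At 1000 UMIs per cell the median was 3, at least 3 were found in 60.4%, and all 6 in 10 of 197 cells where the product gave 2.44. The median total was 1693.5 UMIs in cells with 1 receptor, 1630.5 with 2, 1687 with 3, 1952 with 4, 2942 with 5 and 1911 with 6, so depth did not rise steadily with the number found.

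Of the 15 pairs, Cd209f and Cd209g exceeded the product of their shares the most. They were found together in 84 cells (39.1%), where the product of their shares gives 25.8%, 40 cells had Cd209f alone, 12 had Cd209g alone and 79 had neither. Of cells with Cd209f, 67.7% had Cd209g, and of cells without it 13.2%. The phi coefficient, which is 0 for independent and 1 for matched detection, was 0.54 for the pair over all regions and 0.52 at 1000 UMIs per cell. It was 0.42 within the 96 cells of cortex S1, 0.72 in Amygdala and 0.85 in hypothalamus, the last on only 3 molecules of Cd209g. Detection was less matched in SN-VTA. Its pools of days 21, 23 and 25 had Cd209f in 7 of 8, 4 of 4 and 3 of 4 cells. Cd209g was found in 5, 3 and 3 of these cells, and either gene in 7, 4 and 4. The shared sequence described above can place molecules of 1 gene in the other's count, and its part in this was not tested. For the other 14 pairs phi lay between -0.08 and 0.21, the highest for Cd209g with Clec4n, found together in 79 cells (36.7% against a product of 32%). Clec10a and Mgl2, neighbours on chromosome 11 with related ligands, were found together in 81 cells (37.7% against 36.3%, phi 0.06), with 45 cells holding Clec10a alone and 52 Mgl2 alone. These are descriptions over cells of shared libraries.

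**Figure D5:**
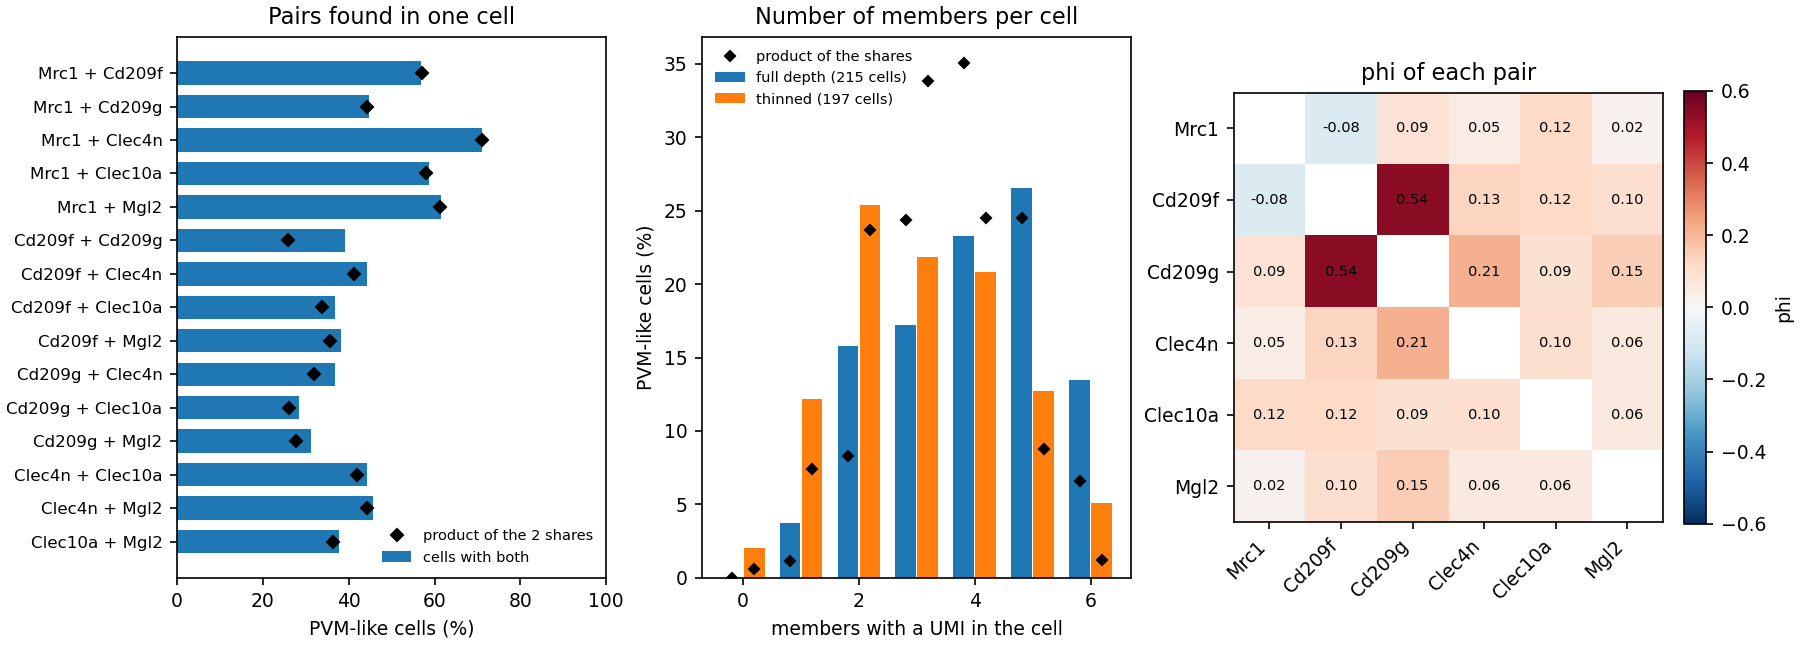
Receptors found together in postnatal PVM-like cells: the share of cells with both members of each pair against the product of the 2 shares (left), the number of the 6 receptors per cell at full depth and at 1000 UMIs per cell with the product of the shares as diamonds (middle), and phi of each pair (right). Cd209f with Cd209g stands out at a phi of 0.54, and the other 14 pairs lie between -0.08 and 0.21.

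The commonest combination was all 6 receptors (29 cells). It was followed by all but Mgl2 and all but Clec10a (16 cells each), the 4 receptors outside the Cd209 pair (15), and Mrc1 with Clec4n alone (14). Of the 79 cells without either Cd209 message, 71 (89.9%) still held Clec4n, Clec10a or Mgl2, and 15 held all 3. In hypothalamus none of the 26 cells had more than 4 of the 6, against 50 of 96 cells of cortex S1 with 5 or 6 at full depth. The product of the single shares in hypothalamus gives 0.635 cells with 5 and 0.0369 with 6. A count of 0 is thus near what the low single shares there give. At 1000 UMIs per cell, 5 or 6 were found in 0 of 24 hypothalamus cells and 19 of 94 cortex S1 cells (20.2%). At 1000 UMIs per cell the median number was 4 in DentGyr, SN-VTA and ZonaIncerta, 3 in cortex S1 and Amygdala, and 2 in hippo CA1 and hypothalamus.

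Genes outside the 6 were compared with each receptor by their levels in pools. Over the 38 pools of all cells, where 1781 other genes had at least 100 UMIs, Mrc1 was most like Dab2 (Pearson's r of log2(CPM + 50) = 0.93), an endocytic adaptor, Pf4 (0.91), a chemokine, Cbr2, F13a1 and the scavenger receptor Stab1 (0.88 each). Clec4n was most like Pf4 (0.85), Lgals1 (0.79), Cbr2 (0.75), Dab2 and Blvrb (0.74 each), and Clec10a like Cybb (0.75), the catalytic subunit of the phagocyte oxidase, and Ccl24 (0.70). Pf4, Cbr2 and Dab2 were thus among the 5 most like both Mrc1 and Clec4n. Tmem208 was most like both Cd209f (0.77) and Cd209g (0.70), and no gene outside the 6 reached 0.70 with Mgl2. Among the receptors themselves, r was 0.88 for Cd209f with Cd209g, 0.75 for Mrc1 with Clec4n and 0.71 for Clec4n with Mgl2. These pools differ in their share of PVM-like cells, which all these values share. Over the 26 PVM-like pools and 595 genes, only Clec4n had genes outside the 6 at 0.70 or more, namely Arpc1b (0.80), Lgals1 (0.74) and Gmfg (0.72).

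Other C-type lectin genes were present at lower levels. Of 69 others listed by family, 55 were in the table and 44 had a UMI in the classed cells, 32 of them in a larger share of postnatal PVM-like than microglia-like cells and 12 in a smaller one. The most widespread in PVM-like cells were Clec4a3 (55.8% of cells, 399 CPM, against 12.1% of microglia-like cells), Clec4a2 (51.2%, 384 CPM, against 12.1%), Cd302 (30.7%, 208 CPM, against 14.9%) and the scavenger collectin Colec12 (24.2%, 138 CPM, against 0%). Clec4a3 and Clec4a2 were thus found in a larger share of cells than Cd209g, at lower summed levels than its 509 CPM. Clec4d, Dectin-2's partner in recognising fungal mannans, was found in 4.19% of PVM-like cells. None of the 69 was abundant enough to be tested in the PVM-like pools, and in pools of all cells 1 of 2 tested passed over regions, Clec4a2 (adjusted p = 0.0471).

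The signalling partners of these receptors were found in both classes. All 17 adaptor and signalling genes listed were in the table with UMIs. Of these, 6 were found in a larger share of postnatal PVM-like than microglia-like cells and 11 in a smaller one. Fcer1g, Tyrobp and Syk, named below, were among the 6. Fcer1g, the Fc receptor gamma chain through which Dectin-2 signals, was found in 82.8% of PVM-like cells (1329 CPM) and 63.8% of microglia-like cells (816 CPM), and Tyrobp (DAP12) in 97.2% and 92.9%. Syk, the kinase recruited by both, was found in 20.9% and 7.80%. Only Fcer1g and Tyrobp could be tested in PVM-like pools. Fcer1g passed over regions (adjusted p = 0.00514) and was higher in hypothalamus than in cortex S1 by 1.45 ± 0.32 on the log2 scale (adjusted p = 0.00581), the opposite direction to Clec4n's -0.85 ± 0.39, which did not pass. Tyrobp did not pass over regions (adjusted p = 0.0574) and was lower in DentGyr than in cortex S1 (-1.51 ± 0.37 on the log2 scale, adjusted p = 0.0243).

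The receptors are also used to mark dendritic cells and monocytes, so the markers of those cells were looked at in the PVM-like class. Of 8 dendritic markers, Irf8 was found in 23.7% of PVM-like cells and in 35.5% of microglia-like cells, Zbtb46 in 3.26%, Cd209a in 2.33% and Flt3 in 0.465%. The monocyte genes Ccr2 and Ly6c2 were found in 0.930% and 2.33%. Summed over the list, dendritic markers averaged 88.7 CPM in SN-VTA pools to 277 in hypothalamus pools, and monocyte markers 0 to 110.8. Of the 7 class II antigen presentation genes listed, 2 were in the table, and Cd74 was found in 4.65% of PVM-like cells.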

How the data were processed

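Single cells of CD-1 mice, nearly all from brain, were captured on Fluidigm C1 chips after papain digestion and their transcripts tagged at the 5′ end, per the labels' protocols. The table the authors deposited holds raw counts, which are unscaled whole UMIs for every cell, in 425 columns that all matched a label. The submitters' processing notes give the build mm10. The software that aligned and counted the reads is not given in the sources used here. Cells were classed, and UMIs summed per region and day over at least 3 cells, for regions with at least 2 pools. Tests used edgeR 4.0.16 (glmQLFit, robust, TMM, filterByExpr at its settings of 10 counts and 15 in total, Benjamini-Hochberg, called at an adjusted p under 0.05) in R 4.3.3. Errors of log2 differences are standard errors from the F statistic. The test was tested on simulated data. Python 3.11.15 with scipy 1.17.1 gave exact intervals. The genes named are the 6 receptors, listed lectin and adaptor genes that were called, otherwise the 4 in the largest share of PVM-like cells (Clec4d, Syk, dendritic and monocyte markers were named after their values were seen), and up to 5 genes with r of at least 0.7. The members and lists were chosen with earlier results of these data known. Alternatives covered DESeq2 1.42.0, filters, pool size, depth, chips, covariates and classes.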

Additional observations from a re-analysis of the deposited data

Results flagged for a closer look

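In 6 of 18 sets of pools from 1 region, the highest pool stood far from the others of its set. The rule flags about 1 in 20 sets of independent, normally spread values. These sets are the 6 genes over the same pools of cortex S1, Amygdala and hypothalamus, so that rate does not carry over to them. Cd209g reached 1392 CPM in cortex S1 on day 27, against 637 in the next pool (n = 7). Clec10a reached 787 CPM in cortex S1 on day 24, against 446. Mrc1 reached 9897 CPM in cortex S1 on day 28, against 4824. Clec4n reached 1359 CPM in hypothalamus on day 23, against 441 (n = 5), and Mgl2 reached 2718 in the same pool, against 771. Mgl2 reached 2890 CPM in Amygdala on day 21, against 1189 (n = 6).

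Cells outside the comparisons also held these receptors, above the 3 counts that a count of 0 allows. The 2 cells of dorsal epidermis (day 56) held 60 UMIs of Mgl2, 24 of Mrc1, 23 of Clec10a and 4 of Cd209f. The 16 cells labelled sscortex held 10 UMIs of Clec4n, 9 of Mrc1, 9 of Clec10a and 4 of Mgl2, with Clec10a in 8 of the cells and 0 UMIs of Cd209f and Cd209g.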

How the results depend on the processing

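The labels give no replicate numbers to pair by. The day was used as a block (a replicate block in kind). This setting was chosen after seeing the data, as were leaving out listed marker genes of other cell types and summing the near-identical pairs. With the day as a block, 2 receptors were called over regions in PVM-like pools (Cd209f and Cd209g), among 64 of 539 genes. In pools of all cells 2 were called, among 200 of 1275 genes. The 56 genes called over regions in PVM-like pools became 90 with DESeq2, 415 with no filter on low counts, 26 with a stricter one, 36 with at least 2 cells per pool, 8 with at least 5, 10 with cells thinned to 1000 UMIs and 30 with classes from 300 variable genes. The 1 receptor called became 3 with DESeq2 (Clec4n, Cd209f and Cd209g, among 90 of 262 genes) and 2 with no filter (among 415 of 13016). It became 2 without age in the model (among 76 of 262). None was called with the stricter filter (0 of 4 tested, without Cd209g), at least 5 cells, thinning (0 of 3 tested) or variable-gene classes. With pools per chip the 1 called was Clec10a, among 40 of 205 genes. In pools of all cells the 176 genes became 896 with no filter, 79 with the stricter one, 41 thinned (of 157 tested) and 75 per chip (of 161). The 4 receptors became 1 thinned (Cd209f) and 2 per chip (Clec4n and Cd209f), of 4 tested in each. The 0 genes called with age became 1 with no filter. Thinning brought the median number of receptors per cell from 4 to 3 and the share of cells with at least 3 from 80.5% to 60.4%, and a threshold of 2 UMIs brought it to 64.7%. Leaving out 1 pool at a time, the PVM-like calls ran from 42 to 1.1e+02 genes (rounded to 2 digits; the highest without the ZonaIncerta pool of day 21, where 651 were tested) and 1 to 3 receptors, those in all cells from 149 to 320 genes and 2 to 5 receptors, and those with age stayed at 0 genes and 0 receptors. The differences of hypothalamus from cortex S1 for Cd209g, Cd209f and Clec4n and the slopes of Mgl2 and Clec4n kept their direction in these runs, and other differences and slopes were not followed in them. Depth limits Cd209g, Clec10a and Clec4n most: in PVM-like pools at 1000 UMIs per cell fewer than 4 of the 6 receptors could be tested.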
